A study of Homo sapiens with 16 samples.

Results

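The proteasome genes described here were all rows of the count table whose symbol is PSMA, PSMB, PSMC or PSMD followed by a number, which gave 39 of the 26229 listed genes. They were sorted by their known place in the complex into the 7 genes of the 20S α ring (PSMA1 to PSMA7), the 7 constitutive genes of the 20S β ring (PSMB1 to PSMB7), the 3 immunoproteasome genes (PSMB8, PSMB9 and PSMB10), the 6 ATPases (PSMC1 to PSMC6), 3 other subunits of the base (PSMD1, PSMD2 and PSMD4), 8 subunits of the lid (PSMD3, PSMD6, PSMD7, PSMD8, PSMD11, PSMD12, PSMD13 and PSMD14), and 3 chaperones of base assembly that carry PSMD symbols (PSMD5, PSMD9 and PSMD10). The remaining 2, PSMA8 of testis and PSMB11 of thymus, were not tested because they had almost no counts, so that 37 genes entered the tests. PSMA8 had 0 counts in all 16 libraries, which allows at most 3 counts, or 0.063 to 0.164 CPM (counts scaled to a common library size with TMM factors). PSMB11 had at most 3 counts in any library.

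The proteasome is the main protease of the cytosol and nucleus and degrades proteins that carry ubiquitin chains. Proteolysis takes place inside the 20S core, a barrel of α and β rings in which PSMB5, PSMB6 and PSMB7 carry the active sites. Interferon induces PSMB8, PSMB9 and PSMB10, which take the places of PSMB5, PSMB6 and PSMB7 in newly built cores and change which peptides are cut for antigen presentation. The 19S regulatory particle caps the core, with a base whose ATPase ring unfolds substrates and a lid whose subunit PSMD14 removes ubiquitin. Subunits of the 26S complex are needed in fixed proportions, and the transcription factor NFE2L1 is known for raising their genes together when proteasome capacity falls.

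The study asked which genes YAP, a transcriptional coactivator restrained by Hippo signalling, controls in human keratinocytes. RNA was sequenced from A431, an epidermoid carcinoma line, and HaCaT, an immortalised keratinocyte line, both grown in DMEM with serum. In the siRNA arm, cells received a control siRNA (siCTRL, 1 library per line) or siRNA against YAP1 (siYAP, 3 libraries per line) in 2 rounds 24 h apart, and RNA was taken 48 h after the second. In the vector arm, cells carried an empty vector (1 library per line) or expressed constitutively active mutant YAP (YAP5SA, 3 libraries per line), with no time given. With single controls the spread came from the 4 treated triplicates alone, p-values measure only the spread between those libraries, and an exact permutation of 3 libraries against 1 could not go below p = 0.25.

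The libraries held 18115624 to 46791673 estimated counts each. YAP1 itself had 5.04 to 7.0 CPM with siYAP against 94.3 with siCTRL in A431 cells, and 21.6 to 23.2 against 254 CPM in HaCaT cells. With YAP5SA it reached 1495, 3245 and 2940 CPM in A431 replicates 1 to 3, against 124 with the empty vector, and 7549 to 22255 against 423 CPM in HaCaT cells. All 7 keratinocyte markers were above 100 CPM in every library, and the leukocyte marker PTPRC had at most 0.25 CPM. The 5 fibroblast markers summed to 13.1 to 19.9 CPM in the HaCaT siRNA libraries, led by DCN (11.3 to 14.2 CPM), and to 0.66 to 1.69 CPM in the HaCaT vector libraries, and stayed at or below 3.17 CPM in A431 cells. The 5 leukocyte markers, led by LYZ in HaCaT cells, summed to 4.62 to 5.79 against 0.89 to 2.90 CPM in HaCaT cells and to 2.89 to 7.03 against 3.95 to 5.65 CPM in A431 cells. The 3 endothelial markers, led by CDH5, summed to 16 to 59.2 against 1.18 to 2.38 CPM in HaCaT cells and to 18.3 to 33.8 against 3.88 to 5.92 CPM in A431 cells. The part of these markers in the results was not tested. A431 YAP5SA replicate 1, the lowest of the 6 YAP5SA libraries in YAP1, lay close to the empty vector, and results that rest on it are also given without it.

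The 37 tested genes were among the more abundant transcripts, with a median percentile of 89.4 among the 14673 genes tested and a lowest percentile of 57.1 (PSMD9). Read pairs were shared with other loci in 6 of the 39 genes, as shown by estimated counts that were not whole (by more than 0.005). These were PSMB2, PSMB7, PSMD4, PSMB8, PSMD5 and, in 1 library, PSMD9, so their levels are less certain. Antisense genes of PSMA3, PSMB8, PSMD5 and PSMD6 were also listed, at 10.8 to 49.9, 6.5 to 16.5, 8.84 to 27.1 and 0.505 to 2.31 CPM, and without a stated strand setting sense and antisense reads of these loci cannot be told apart. Within a triplicate the genes varied less than others in A431 siYAP and more in A431 YAP5SA, where replicate 1 stood apart. The median coefficient of variation of the 37 was 5.14% in A431 siYAP, 8.81% in HaCaT siYAP, 15.2% in A431 YAP5SA and 13.3% in HaCaT YAP5SA, against 7.16%, 7.66%, 9.58% and 12.3% over genes above 10 CPM in the same libraries.

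Messages of the complex were not equally abundant. Divided by the length of 1 transcript per gene (that with the longest coding part in GENCODE v29), the 31 constitutive 26S subunits spanned 13.6-fold in A431 siYAP libraries. PSMA6, an α ring subunit, was highest with 217 ± 12 CPM per kb (SD, n = 3), and PSMD12 of the lid (15.9 ± 0.07) and the ATPase PSMC4 (16.1 ± 0.50) were lowest and not separated beyond their spread. In HaCaT siYAP libraries the span was 13.8-fold, with PSMB4 of the β ring (154 ± 13.7 CPM per kb) and PSMA6 (153 ± 14.9) highest and not separated beyond their spread, and PSMD12 again lowest (11.2 ± 0.58). The median level per length was 103 CPM per kb for the α ring and 103 for the constitutive β ring in A431 siYAP, against 44.9 for the lid and 29.7 for the ATPases, and it was 102, 62.2, 21.2 and 32.3 CPM per kb in HaCaT siYAP, where the ATPases stood above the lid. The 3 immunoproteasome genes lay inside this range, with PSMB8 at 80.7 ± 4.15, PSMB9 at 47.9 ± 2.52 and PSMB10 at 31.8 ± 3.08 CPM per kb in A431 siYAP. These ratios rest on 1 transcript per gene, and the isoform used in these cells was not measured.

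**Figure D1:**
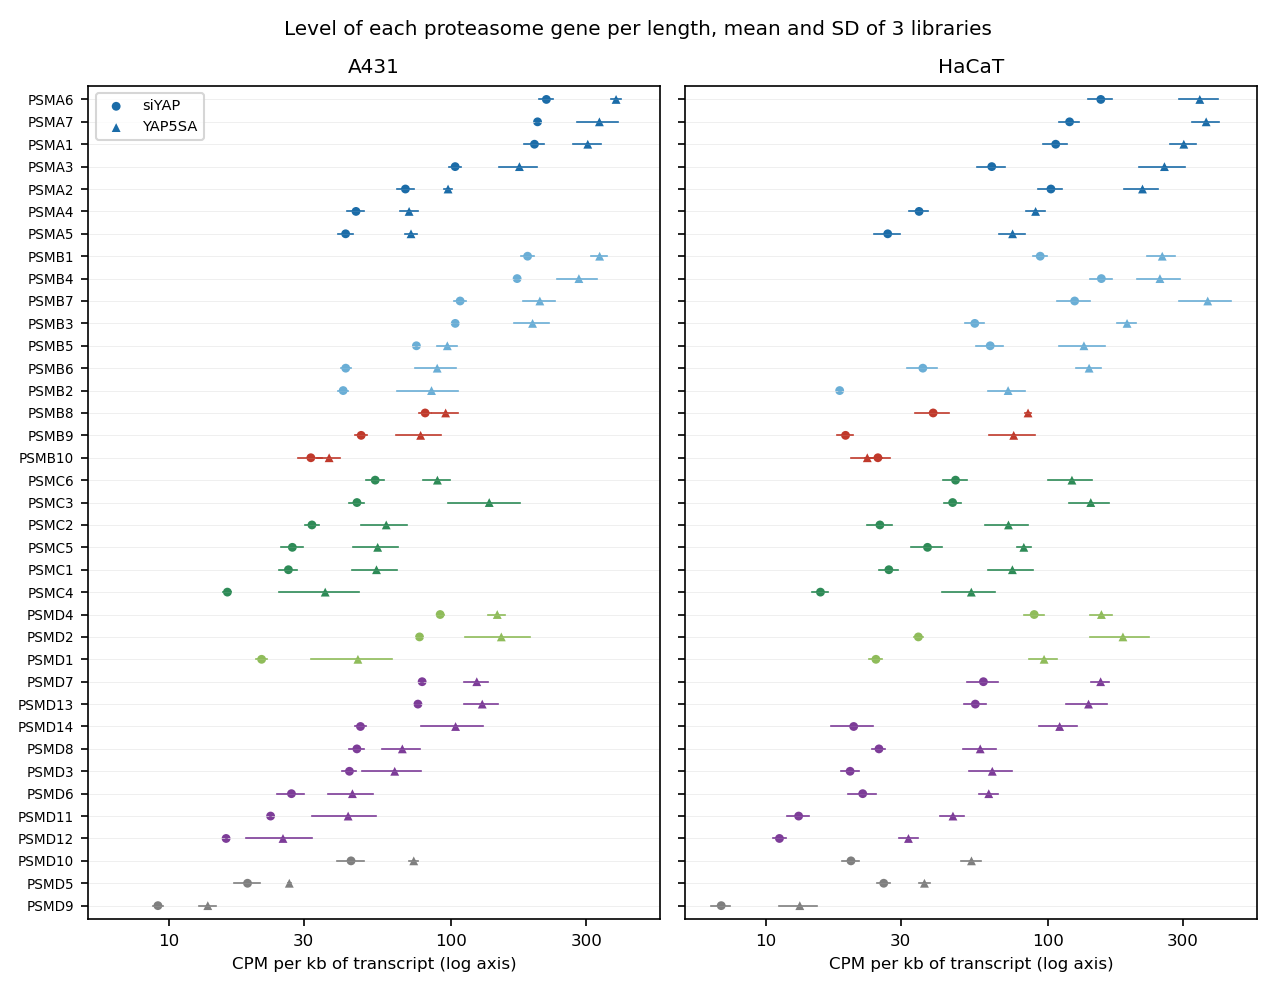
Level of each of the 37 tested proteasome genes per kb of transcript (log axis) with siYAP (circles) and YAP5SA (triangles), as mean and SD of 3 libraries in A431 (left) and HaCaT (right), coloured by class. PSMD12, PSMC4 and PSMB2 have the lowest means of the lid, ATPases and β ring in both lines. In A431 cells PSMB2 is not separated from PSMB6 beyond their spread (41.4 ± 1.5 and 42.2 ± 1.8 with siYAP, 85.0 ± 20.8 and 89.0 ± 14.6 with YAP5SA). PSMB10 has a circle (24.9) and a triangle (22.8) close together in HaCaT cells.

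Promoter sequences are given for a few genes on which the comparisons turn. RefSeq sequences (GRCh38.p14) from 250 bases before to 50 bases after a start site were held for 34 of the 39 genes and searched on both strands for short motifs. The letters of the antioxidant response element (TGACNNNGC), bound by NFE2L1, were found for 10 of 34 genes (29.4%, against 16.1% of all genes searched), the CCAAT box for 18 (52.9% against 39.7%) and the ETS core (CCGGAAG) for 12 (35.3% against 12.2%). The TEAD core (GGAATG), bound by the partners of YAP, was found for 5 (14.7% against 16.7%). The interferon elements GAAANNGAA and TTCNNNGAA (GAS) were found for 5 (14.7% against 9.86%) and 7 (20.6% against 9.38%), PSMB8 and PSMB10 among the first. A match is a run of letters only, and binding was not measured.

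The following stretches show where such letters stand in genes on which the results turn, 5′ to 3′ on the strand of the gene, with the motif in capitals, and all end before the start site.
PSMA4 with the antioxidant response element (chr15:78540650-78540679, plus strand, 126 to 118 bases before the start): gtgggcacgaTGACTCTGCaccgcctcctc
PSMA4 with the TEAD core (chr15:78540687-78540716, plus strand, 87 to 82 bases before the start): gaccgaccgccgGGAATGgcccccgccggc
PSMD10 with the CCAAT box on the opposite strand (chrX:108091601-108091630, minus strand, 76 to 72 bases before the start): ggaaggccggtgATTGGtgaagctctaacg
PSMB8 with the GAS letters (chr6:32844093-32844122, minus strand, 65 to 57 bases before the start): aactgtccttTTCTCGGAAaaggcaggggg
PSMB9 with the antioxidant response element on the opposite strand (chr6:32854034-32854063, plus strand, 148 to 140 bases before the start): gggcggggctGCCTCGTCActtgtctcggg
PSMB10 with the interferon element (chr16:67936852-67936881, minus strand, 21 to 13 bases before the start): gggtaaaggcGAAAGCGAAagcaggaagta

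Knockdown of YAP was followed by slightly lower levels of nearly the whole group in both lines, with few single genes past the test. In the fit, 32 of 37 genes were below siCTRL in A431 cells and 34 of 37 in HaCaT cells, against 46.7% and 46.8% of all tested genes. The median log2 fold changes were -0.17 and -0.29, while the median over all tested genes was 0.03 in each line. The log2 geometric mean of the 37 changed by -0.17 and -0.30, with a pooled replicate SD of 0.136 and 1 control library each. This change of the group was not tested. Calls needed an FDR below 0.05 together with a logCPM over 1, and the percentage of all tested genes called in the same way is given with the counts as background. In A431 cells edgeR called 0 of the 37 (3.78% of all genes were called lower), and DESeq2 called 0. In edgeR 1 of the 37 had an unadjusted p under 0.05, as did 3264 of all 14673 genes. In HaCaT cells 1 gene, PSMD10, was called lower (background 3.30%), and DESeq2 added PSMB10 (DESeq2 background 4.95%). There 11 of the 37 had an unadjusted p under 0.05 in edgeR, as did 2997 of all 14673 genes. Over both lines PSMD10, PSMD7 and PSMA5 were called lower, or 3 of 37 against 7.68% of all genes, and none was called higher. All 6 siYAP libraries lay below the siCTRL library of their line for 25 of the 37 genes, against 18.3% of all tested genes. In these bulk libraries fewer cells of a kind and less RNA per cell cannot be told apart.

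PSMD10 (gankyrin), a chaperone that holds the ATPase PSMC4 during base assembly, stood at 75.8 CPM in the A431 siCTRL library and at 75.6, 68.1 and 60.9 CPM after knockdown, and 51.2 against 33.3, 30.3 and 29.2 CPM in HaCaT cells. The HaCaT libraries did not overlap the control, whereas A431 replicate 1 lay just below it. Its log2 fold change was -0.73 (SE 0.14, FDR = 0.00965) in HaCaT cells and -0.44 (SE 0.10, FDR = 0.013) over both lines. The difference of -0.58 (SE 0.20) between lines did not pass the test (FDR = 0.30).

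PSMD7, the lid subunit that pairs with the deubiquitinase PSMD14, had 167 CPM with siCTRL and 131, 131 and 133 with siYAP in A431 cells, and 133 against 89.6, 112 and 93.2 CPM in HaCaT cells. All 6 knockdown libraries were below their control, with a log2 fold change of -0.39 (SE 0.11, FDR = 0.029) over both lines. PSMA5, an α ring subunit, had 191 CPM with siCTRL and 165, 161 and 146 with siYAP in A431 cells, and 139.7 against 107, 106 and 88.2 CPM in HaCaT cells, again without overlap and with a log2 fold change of -0.38 (SE 0.11, FDR = 0.033). PSMD10 alone was called over both lines without A431 replicate 2, without A431 replicate 3 or without HaCaT replicate 3, which left 1 call of 3. The share of all genes called lower fell as well, from 7.68% to 6.08%, 5.17% and 5.67%. In HaCaT cells PSMD7 joined PSMD10 without HaCaT replicate 2 (2.98% of all genes called lower).

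The classes shared the direction. In A431 cells the median log2 fold change was -0.10 for the α ring, -0.11 for the constitutive β ring, -0.28 for the ATPases, -0.22 for the other base subunits and -0.26 for the lid. In HaCaT cells these medians were -0.29, -0.35, -0.17, -0.23 and -0.39. The 3 immunoproteasome genes had a median of -0.05 in A431 and -0.58 in HaCaT cells, and all 3 were below siCTRL in every HaCaT siYAP library. For the 3 assembly chaperones the medians were -0.22 and -0.48. The extremes in A431 cells were PSMC3, an ATPase (-0.47, SE 0.25), and the lid subunit PSMD3 (0.10), and in HaCaT cells PSMD10 and PSMB2 of the β ring (0.14). None of these extremes other than PSMD10 passed the test. Within classes the lowest and highest genes of the HaCaT comparison were PSMA5 and PSMA2 (-0.47 and 0.08), PSMB5 and PSMB2 (-0.56 and 0.14), PSMC1 and PSMC5 (-0.31 and -0.05), and PSMD14 and PSMD12 (-0.49 and -0.12).

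**Figure D2:**
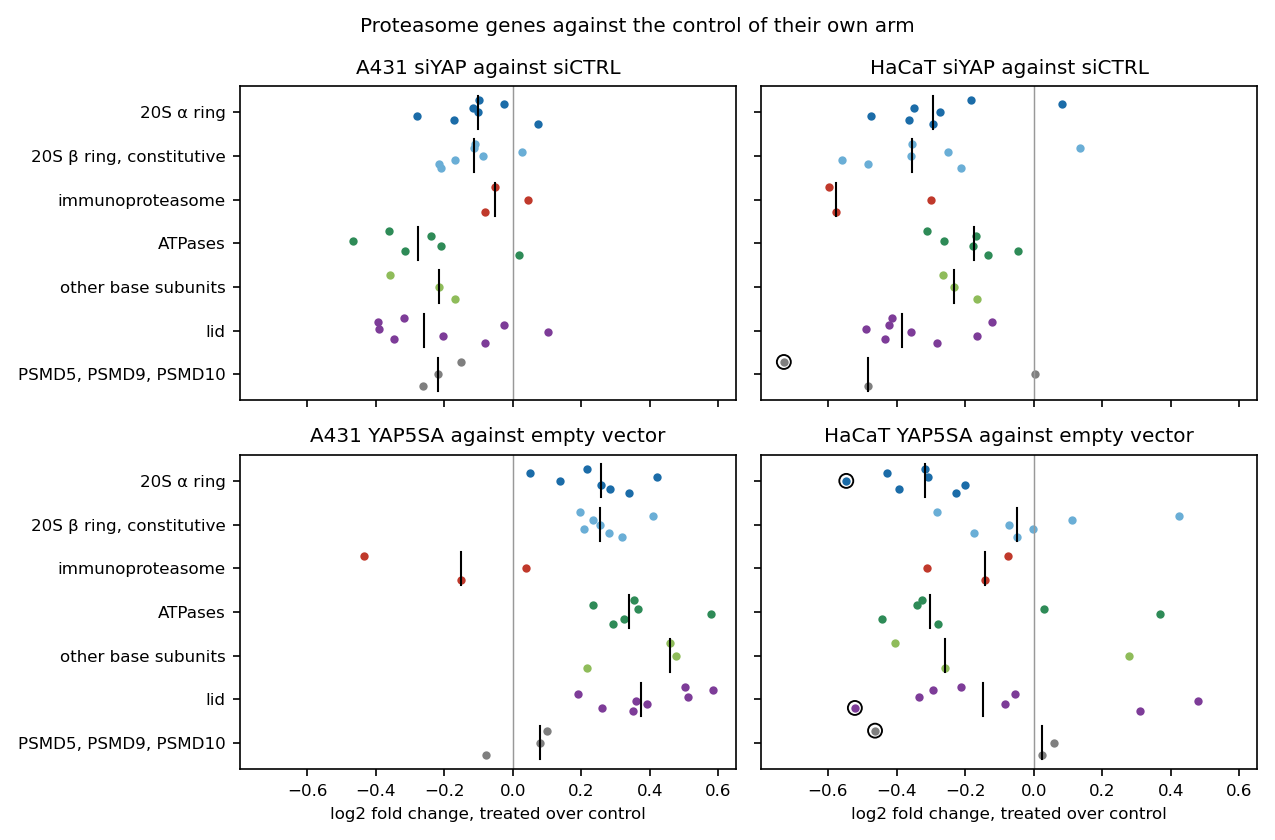
Log2 fold change of each proteasome gene (points, by class) in the 4 comparisons with the control of the same arm and line. Black bars mark class medians and rings mark genes called at an FDR under 0.05. Most points lie left of 0 in both siYAP panels, whereas with YAP5SA they lie right of 0 in A431 and mostly left of 0 in HaCaT.

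Relative to the empty vector of their own line, YAP5SA libraries stood on opposite sides in the 2 lines. In A431 cells 34 of 37 genes were above the empty vector, with a median log2 fold change of 0.28 (0.02 over all tested genes). All 31 constitutive 26S subunits were on the positive side, while 46.4% of all tested genes were below the empty vector. In HaCaT cells 28 of 37 were below the empty vector (48.8% of all tested genes), with a median of -0.21 (0.01 over all genes). No gene was called in A431 cells, where edgeR called 0 of all 14673 genes (background 0%), and DESeq2 called 0 of the 37. In edgeR 3 of the 37 had an unadjusted p under 0.05, as did 828 of all 14673 genes. In HaCaT cells PSMA4, PSMD7 and PSMD10 were called lower (3 of 37 against 6.64% of all genes) and none higher. Over both lines edgeR and DESeq2 each called 0 of the 37, where edgeR called 2.04% of all genes. In edgeR 4 of the 37 had an unadjusted p under 0.05, as did 3134 of all 14673 genes. Without TMM factors, on library totals alone, all genes moved up by 0.10 in the HaCaT comparison and 22 of 37 genes were below the empty vector, with a median of -0.11. With siCTRL and the empty vector pooled as controls, which mixes the arms, the HaCaT median turned to 0.29 and the 1 call was PSMD3, higher (4.77% of all genes).

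PSMA4, an α ring subunit, had 581 CPM with the empty vector and 364, 425 and 404 with YAP5SA in HaCaT cells (log2 fold change -0.55, SE 0.14, FDR = 0.022), and 284 against 286, 321 and 329 CPM in A431 cells. PSMD7 had 367 CPM with the empty vector and 275, 238 and 254 with YAP5SA in HaCaT cells (-0.52, SE 0.15, FDR = 0.033), and 172 against 182, 219 and 215 CPM in A431 cells. PSMD10 had 114 against 89.7, 81.2 and 76.8 CPM in HaCaT cells (-0.46, SE 0.14, FDR = 0.042), and 106 against 117, 109 and 115 CPM in A431 cells. For all 3 genes the YAP5SA libraries lay on opposite sides of the control in the 2 lines. Without HaCaT replicate 3 the calls fell to 1 (PSMA4), and with HaCaT fitted alone to 0. The share of all genes called lower fell as well, from 6.64% to 3.52% and 1.70%. Without HaCaT replicate 2 there were again 3 calls (6.36% of all genes called lower), PSMA4 with PSMA2 and PSMA6 of the α ring in place of PSMD7 and PSMD10.

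The largest positive values in A431 cells belonged to 19S subunits, PSMD12 (0.59, SE 0.23, FDR = 0.80) and PSMC4 (0.58, SE 0.30), and in HaCaT cells to PSMD3 of the lid (0.48, SE 0.24, FDR = 0.18), PSMB2 of the core (0.42) and PSMC4 (0.37). In A431 cells PSMD12 had 74.3 CPM with the empty vector and 78.3, 134 and 122 with YAP5SA, and PSMC4 had 38.1 against 36.5, 69.5 and 64.5 CPM. In both genes replicate 1 lay near the control and replicates 2 and 3 stood apart from it. The same held for the group: the geometric mean of the 37 genes was 130.5 CPM with the empty vector and 132, 169 and 166 CPM in YAP5SA replicates 1 to 3. Without replicate 1 the A431 median rose to 0.38 and PSMD12 was called higher (0.79, SE 0.13, FDR = 0.023), where 0.435% of all genes were. Over both lines 4 genes, PSMB2, PSMC4, PSMD3 and PSMD8, were then called higher, while the share of all genes called higher rose from 1.38% to 4.77%. Other omissions went the other way, and without replicate 2 the A431 median fell to 0.21. Without replicate 2 or without replicate 3, 0 of the 37 were called in A431 cells or over both lines. In A431 cells 0 of the 37 then had an unadjusted p under 0.05.

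The test of the difference between lines called none of the 37 for YAP5SA in edgeR, where 0.0886% of all genes were called. DESeq2 called 2 lower, PSMA4 and PSMD7, where it called 2.81% of all genes lower. In edgeR 16 of the 37 had an unadjusted p under 0.05, as did 3280 of all 14673 genes. The difference, HaCaT minus A431, was negative for 32 of 37 (51.3% of all genes), with a median of -0.47 against -0.02 over all genes. It was lowest for PSMD12 (-0.88, SE 0.31, FDR = 0.13), PSMD1 (-0.86) and PSMD14 (-0.85). Without A431 YAP5SA replicate 1, 7 genes were called, PSMD12, PSMD1, PSMD11, PSMD7, PSMC5, PSMA4 and PSMD14, with log2 differences from -1.11 to -0.74, where 3.26% of all genes were called lower. Without A431 replicate 2 or without A431 replicate 3, 0 of the 37 were called (0% of all genes called lower). Without HaCaT replicate 1 the single call was PSMD7 (2.18% of all genes called lower), and without HaCaT replicate 2 it was PSMA6 (0.956%). All 3 A431 YAP5SA libraries were above and all 3 HaCaT YAP5SA libraries below the empty vector for 17 of the 37 genes, against 10.4% of all tested genes. For siYAP the difference between lines was called for 0 of the 37 by edgeR and by DESeq2 (edgeR background 0.170%). In edgeR 1 of the 37, PSMD10, had an unadjusted p under 0.05, as did 1690 of all 14673 genes.

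**Figure D3:**
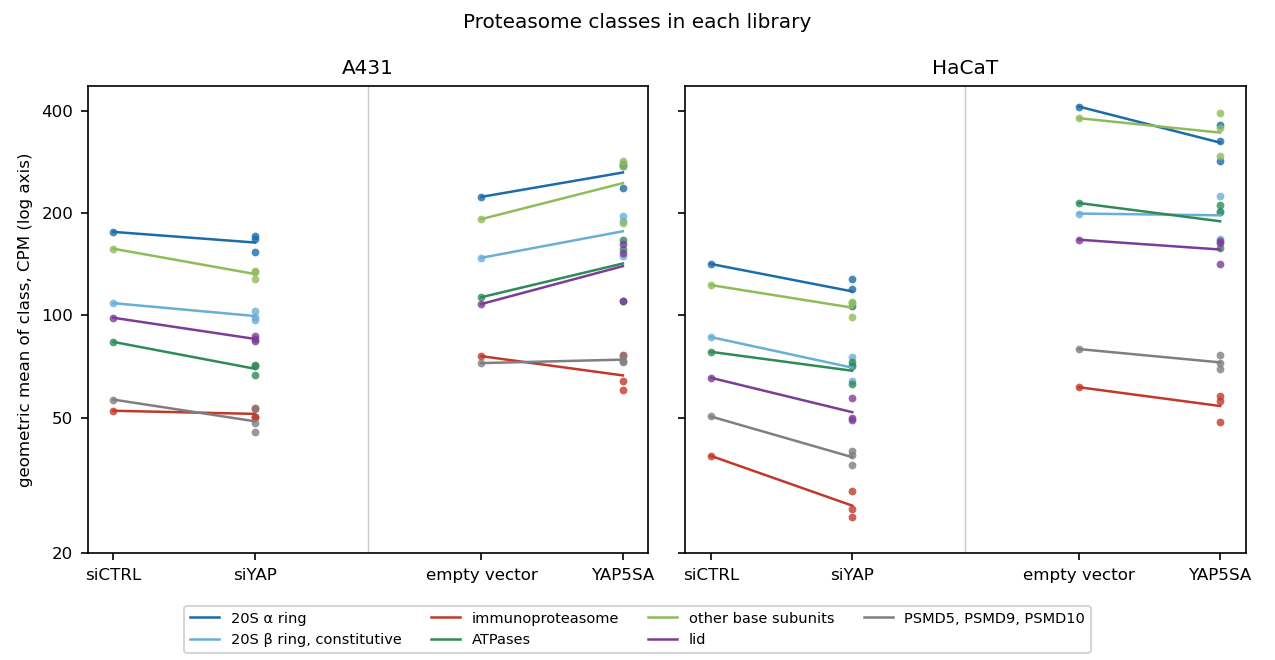
Geometric mean of each proteasome class in CPM (log axis) in every library (points) by treatment, with lines joining the group means within an arm, in A431 (left) and HaCaT (right). Every class lies higher in all 4 vector libraries than in all 4 siRNA libraries of its line, and for the α ring the gap between controls is 142 to 411 CPM in HaCaT and 176 to 223 CPM in A431 cells.

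Proteasome messages also differed between the arms, and did so already between the 2 controls. In HaCaT cells the geometric mean of the 37 genes was 81.1 CPM with siCTRL and was 67.0, 70.1 and 61.0 in the siYAP libraries, against 198 CPM with the empty vector and 158, 192 and 184 CPM with YAP5SA. For A431 cells the siCTRL value was 103 CPM and the siYAP values were 93.5, 92.6 and 88.0, against 130.5 to 169 CPM in the vector arm. Every vector library therefore stood above every siRNA library in both lines. Gene by gene this held for 36 of 37 in HaCaT cells (26.7% of all tested genes), all except PSMB10, and for 34 of 37 in A431 cells (15.2%), all except PSMB5, PSMB10 and PSMD12.

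As a ratio of single libraries, on the log2(CPM + 0.5) scale and with no test, the empty vector exceeded siCTRL in HaCaT cells for 36 of 37 genes, with a median of 1.42 (-0.03 over all tested genes). Of the 37, 28 were at least 2-fold higher, against 14.8% of all genes. The highest were PSMD14 (2.26), the base scaffold PSMD1 (2.11) and PSMA3 of the α ring (1.99), and the lowest were PSMB10 (-0.64), PSMB4 (0.40) and PSMD9 (0.41). PSMD14 had 56.0 CPM with siCTRL and 270.3 with the empty vector. In A431 cells 35 of 37 were higher in the empty vector, with a median of 0.36 (0.00 over all genes) and 0 of 37 at least 2-fold higher, against 3.85% of all genes. On library totals alone the HaCaT median was 1.27, with 26 genes at least 2-fold higher.

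**Figure D4:**
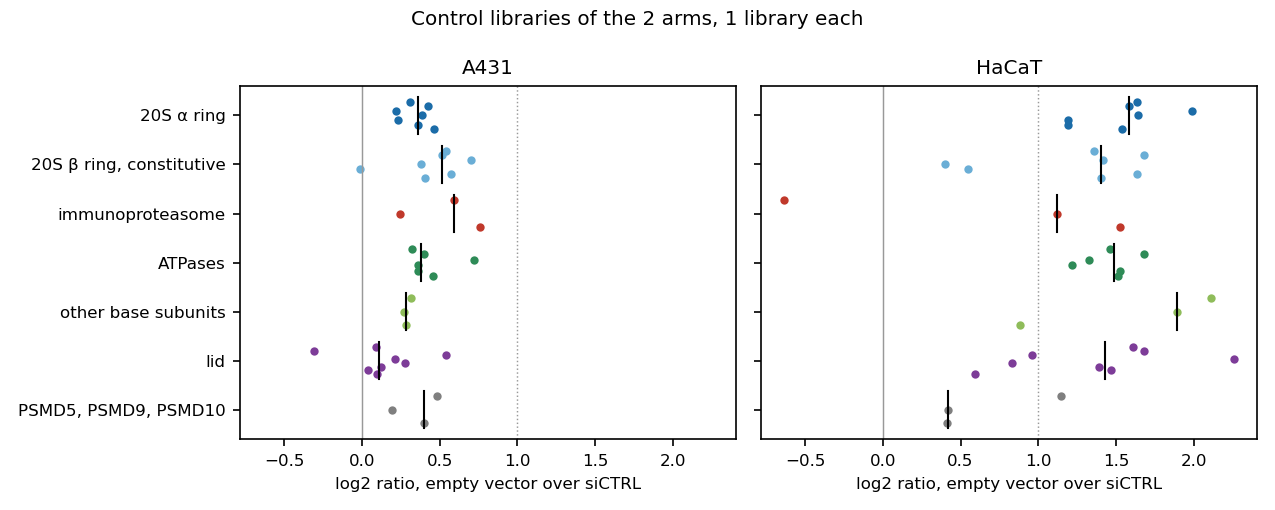
Log2 ratio of the empty vector library to the siCTRL library for each proteasome gene, by class, in A431 (left) and HaCaT (right), with black bars at class medians and a dotted line at a 2-fold difference. In HaCaT cells 28 of 37 points lie beyond the dotted line and PSMB10 alone lies left of 0, whereas in A431 cells no point reaches the dotted line.

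Class by class, the HaCaT ratio of controls had a median of 1.58 for the α ring, 1.40 for the constitutive β ring, 1.49 for the ATPases, 1.89 for the other base subunits and 1.43 for the lid. All 7 α ring genes and all 6 ATPases were at least 2-fold higher, as were 5 of 7 β ring genes and 5 of 8 lid genes. The 3 assembly chaperones stood lower, with a median of 0.42 and only PSMD10 past 2-fold.

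The only comparison with 3 libraries on each side within a line is YAP5SA against siYAP, in which YAP activity and the kind of transfection change together and cannot be told apart. In HaCaT cells 36 of 37 genes were called higher with YAP5SA (31.5% of all genes), with a median log2 fold change of 1.47 (-0.06 over all genes) and the highest values for PSMD14 (2.42, SE 0.19, FDR = 1.36e-07) and PSMD2 (2.41). In A431 cells 35 of 37 were called higher (20%), with a median of 0.74 (-0.03 over all genes) and the highest value for PSMC3 (1.56, SE 0.18, FDR = 5.2e-05). PSMB10 was the gene not called in HaCaT cells (-0.13, SE 0.13), and PSMB10 (0.22) and PSMB8 (0.24) were those not called in A431 cells. When YAP5SA was taken relative to the empty vector and siYAP relative to siCTRL, no gene of the 37 was called by edgeR in either line, where 1.53% of all genes were called in A431 and 9.0% in HaCaT cells, and 9 and 4 of the 37 had an unadjusted p under 0.05. The medians were then 0.43 in A431 cells, with 34 of 37 positive, and 0.15 in HaCaT cells, with 24 of 37 positive.

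The immunoproteasome genes did not move as a unit, and PSMB10, whose promoter stretch is printed above with that of PSMB8, departed from the rest of the complex. PSMB8 had 87.9 CPM with siCTRL, 91.6, 94.9 and 85.7 with siYAP, 104 with the empty vector and 120.3, 98.4 and 103 with YAP5SA in A431 cells. In HaCaT cells it had 54.0 with siCTRL, 49.8, 44.5 and 37.6 with siYAP, 118 with the empty vector and 93.1, 98.1 and 94.5 CPM with YAP5SA. PSMB8 thus spanned 85.7 to 120.3 CPM over the A431 libraries. The arms did not overlap in either line, though in A431 cells they came close (94.9 against 98.4 CPM). In HaCaT cells YAP5SA against siYAP gave 1.12 (SE 0.11, FDR = 1.64e-06).

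PSMB9 had 39.6 CPM with siCTRL, 39.3, 37.8 and 35.3 with siYAP, 67.5 with the empty vector and 73.3, 52.3 and 56.9 with YAP5SA in A431 cells. In HaCaT cells it had 22.3 with siCTRL, 15.9, 15.0 and 13.9 with siYAP, 65.1 with the empty vector and 69.2, 47.5 and 60.2 CPM with YAP5SA. The vector arm was higher in both lines without overlap, by 0.70 (SE 0.15, FDR = 0.0029) in A431 and 1.98 (SE 0.16, FDR = 1.74e-07) in HaCaT cells for YAP5SA against siYAP.

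PSMB10 had 40.1 CPM with siCTRL, 34.4, 41.3 and 40.4 with siYAP, 60.7 with the empty vector and 49.4, 41.2 and 44.2 with YAP5SA in A431 cells. In HaCaT cells it had 45.9 with siCTRL, 33.7, 27.5 and 29.9 with siYAP, 29.3 with the empty vector and 29.4, 23.9 and 30.2 CPM with YAP5SA. In HaCaT cells siCTRL was the highest library, and the siYAP and YAP5SA libraries overlapped. Against siCTRL siYAP gave -0.60 (SE 0.18), which missed the threshold (FDR = 0.0657), and against the empty vector YAP5SA gave -0.43 (SE 0.18, FDR = 0.80) in A431 cells.

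The constitutive counterparts differed among themselves, since PSMB6 and PSMB7 were higher in all vector libraries of both lines and PSMB5 was so in HaCaT cells only. PSMB5, the chymotrypsin-like subunit, had 109 CPM with siCTRL, 97.3, 97.6 and 96.8 with siYAP, 108 with the empty vector and 114, 133 and 128 with YAP5SA in A431 cells, and 119, then 81.1, 88.9 and 71.6, then 173, and 139, 202 and 177 CPM in the same order in HaCaT cells. PSMB6, the caspase-like subunit, had 41.8, then 37.7, 35.5 and 34.8, then 62.4, and 62.0, 85.9 and 79.7 CPM in A431 cells, and 42.8, then 31.7, 33.7 and 26.4, then 134, and 107, 131 and 119 CPM in HaCaT cells. PSMB7, the trypsin-like subunit, had 122, then 110.3, 104 and 101, then 162, and 173, 223 and 209 CPM in A431 cells, and 140.5, then 118, 139 and 107, then 372, and 282, 432 and 364 CPM in HaCaT cells. All 3 were lower with siYAP than with siCTRL in every library and none of them was called in a comparison with a control.

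The ratio of each immunoproteasome gene to the subunit it replaces was taken within a library, where scaling between libraries cancels. PSMB8/PSMB5 lay between 0.738 and 1.06 in the 8 A431 libraries and between 0.456 and 0.683 in the 8 HaCaT libraries, without overlap. PSMB9/PSMB6 lay between 0.608 and 1.18 in A431 and between 0.363 and 0.647 in HaCaT libraries, which overlapped through YAP5SA replicates. PSMB10/PSMB7 was 0.329 in A431 siCTRL and 0.327 in HaCaT siCTRL, and separated most in the vector arm, with 0.185 to 0.375 in A431 and 0.0553 to 0.104 in HaCaT libraries. Averaged over the 4 conditions, the ratios were lower in HaCaT cells by a log2 difference of -0.68 for PSMB8/PSMB5, -0.95 for PSMB9/PSMB6 and -1.08 for PSMB10/PSMB7. The exact two-sided permutation test of line within condition (1600 rearrangements, smallest possible p = 0.00125, 3 ratios) gave p = 0.00125, 0.0025 and 0.00125, or 0.00188, 0.0025 and 0.00188 after Benjamini-Hochberg adjustment. Within the siYAP or the YAP5SA libraries alone, an exact permutation test of 3 against 3 cannot go below p = 0.1.

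**Figure D5:**
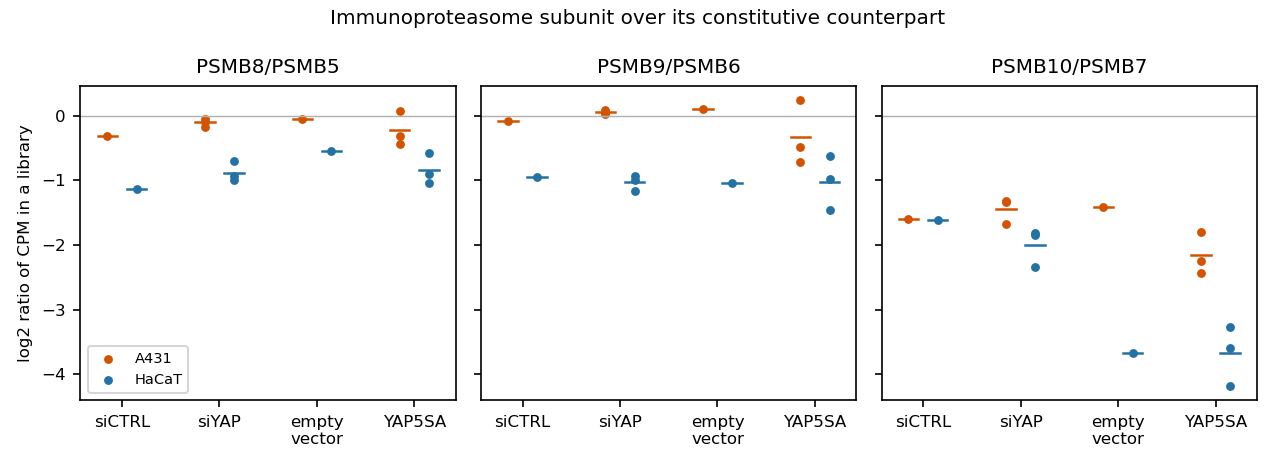
Log2 ratio of PSMB8 to PSMB5, PSMB9 to PSMB6 and PSMB10 to PSMB7 in each library (points, with bars at group means) by treatment, in A431 (orange) and HaCaT (blue). The group mean of HaCaT lies below that of A431 in every condition, by least in siCTRL for PSMB10/PSMB7 (ratios of 0.327 and 0.329), and the PSMB10/PSMB7 ratio of HaCaT drops in the vector arm.

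Most but not all tested genes of interferon response and antigen processing moved with PSMB8 and PSMB9 between the HaCaT arms, and their part in that difference was not tested. TAP1, a peptide transporter encoded beside PSMB9, had 45.1 to 57.9 CPM in the 4 HaCaT siRNA libraries and 153 to 211 CPM in the 4 vector libraries. Of the 14 tested genes of interferon response and antigen processing, 11 were called higher and 2 lower in HaCaT YAP5SA against siYAP (background 31.5% and 28.5%), and 6 higher and 2 lower in A431 (20% and 14.6%). In HaCaT cells 2 genes of this list went against TAP1 without overlap. They had 115 to 156 and 127 to 164 CPM in the siRNA libraries, against 36.1 to 75.4 and 77.2 to 110 CPM in the vector libraries. Against their own controls the calls were few: over both lines NLRC5 (0.55) and IRF9 (0.55) were called higher with siYAP and TAP2 (0.66) with YAP5SA. IRF1, a transcription factor for PSMB9 and TAP1, was called lower with siYAP in HaCaT cells (-1.19, SE 0.23, FDR = 0.010) and had a value of 0.42 (SE 0.25, FDR = 0.35) in A431 cells. Between the HaCaT controls IRF1 was nearly level, with 94.8 CPM with siCTRL and 101 CPM with the empty vector.

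Levels differed between the lines in both directions, and averaged over the 4 conditions they did so about as often as among all tested genes. Averaged over the 4 conditions, 12 of 37 were called lower in HaCaT than in A431 (33.1% of all genes) and 10 higher (27.5%), and with the 12 treated libraries alone 17 were called lower (33.3%) and 6 higher (27.1%). PSMA2 of the α ring was highest in HaCaT relative to A431 (0.95, SE 0.08, FDR = 2.01e-07) and PSMB2 lowest (-0.78, SE 0.11, FDR = 3.75e-05). The immunoproteasome genes were all lower in HaCaT cells, with -0.43 for PSMB8 (FDR = 0.00026), -0.56 for PSMB9 (FDR = 0.00036) and -0.47 for PSMB10 (FDR = 0.00038), and their counterparts were all higher, with 0.25 for PSMB5, 0.39 for PSMB6 and 0.61 for PSMB7. No ATPase was called lower and 3 were called higher, whereas 3 lid genes were called lower and none higher.

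That contrast depended on the arm. Among siYAP libraries alone 22 of the 37 were called lower and 3 higher in HaCaT (background 31.7% and 26.9%), and among YAP5SA libraries alone 3 were called lower and 14 higher (26.7% and 23.5%). In the lid 7 of 8 genes were called lower and none higher with siYAP, and none lower and 2 higher, PSMD6 and PSMD7, with YAP5SA. In the ATPases none was called lower in either arm, and 1 and 4 were called higher. PSMB5 (-0.27) and PSMB6 (-0.24) had negative and PSMB7 (0.21) positive values with siYAP, none of them called, and all 3 were called higher with YAP5SA (0.47, 0.65 and 0.83). Calls in both arms in the same direction were PSMB1, PSMB10 and PSMD10, lower in HaCaT, and PSMA2, PSMC5 and PSMD5, higher. PSMA3, PSMA4 and PSMD7 were called lower in HaCaT with siYAP and higher with YAP5SA. The share of all tested genes called in both arms, in the same or in opposite directions, is not given here. These genes are therefore listed without a background. PSMB8 was lower in HaCaT by -1.05 (SE 0.11) and PSMB9 by -1.33 (SE 0.15) among siYAP libraries, but by -0.17 (FDR = 0.21) and -0.04 (FDR = 0.81) among YAP5SA libraries.

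Calls among partners of the proteasome were few. Of 52 tested genes in the lists of activators, assembly chaperones, further 19S subunits, transcriptional regulators, ubiquitin genes, shuttles and antigen processing, 3 were called lower and 3 higher over both lines with siYAP (background 7.68% and 5.30%), and 1 lower and 2 higher with YAP5SA (0.661% and 1.38%). The activator subunits PSME2 (-0.47, SE 0.10, FDR = 0.0085) and PSME3 (-0.53, SE 0.15, FDR = 0.036), which open the core as 11S caps, were called lower with siYAP, as was the core assembly chaperone PSMG4 (-0.52). PSME3 had 79.3 CPM with siCTRL and 47.2, 54.1 and 45.7 with siYAP in A431 cells, and 61.0 against 46.4, 43.8 and 51.8 CPM in HaCaT cells, without overlap. DDI2, a protease that activates NFE2L1, was called higher with siYAP (0.72, SE 0.14, FDR = 0.0050).

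With YAP5SA over both lines the small lid subunit SHFM1 was called lower (-0.40, FDR = 0.050). PSME3 had a value of 0.58 (SE 0.16, FDR = 0.072). PSME1 gave -0.24 with siYAP (FDR = 0.15) and -0.03 with YAP5SA (FDR = 0.90), POMP, which builds the core, -0.14 (FDR = 0.51) and 0.05 (FDR = 0.86), and NFE2L1 -0.11 (FDR = 0.66) and 0.02 (FDR = 0.97). None of these last 3 genes passed the test in any comparison with a control.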

How the data were processed

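RNA-seq was analysed in 16 libraries of 8 groups (line by treatment, from the sample labels). The authors cut reads to 75 bp, assigned them to genes of RefSeq by RSEM (1.2.11 and hg19 in the submitters' processing notes, another version in the study's methods) and deposited the estimated counts per gene, neither scaled nor filtered. The expected counts were rounded and tested with edgeR 4.0.16 in R 4.3.3 (TMM, quasi-likelihood test, 1 model of 8 groups with 8 residual degrees of freedom, Benjamini-Hochberg over all genes) on the 14673 genes whose counts averaged over 10. The scaling and call rule (FDR under 0.05, logCPM above 1) follow the study's methods, whose filter of over 10 reads per sample was read as a mean and, as an alternative, as every library. The standard error is the log2 fold change over the square root of F. Tables and figures were made in Python 3.11.15.

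The estimated counts of a library (18115624 to 46791673) set the precision, and a count of 0 allows 3 counts, for counting error only. The proteasome genes and the lists of partners were chosen with earlier results of these data known. Named were the immunoproteasome genes and counterparts, genes called in a comparison with a control or in a difference between lines, class extremes and a few fixed partners. The empty vector ratios and the fits of each arm against its own control were added after the levels were seen. The scripts were tested on simulated data. Alternatives were DESeq2 1.42.0, RLE factors, library totals, other count filters, FDR alone, each line alone, pooled controls, treated libraries alone, a replicate block and each treated library left out. Same-numbered YAP5SA libraries of the 2 lines deviated together (correlations 0.40, 0.17 and 0.15 across genes), all over the 0.1 set for pairing, which no other pair of groups passed for all 3 numbers. Promoter sequences are RefSeq's on GRCh38.p14. Protein sequences were not used here. A few genes of the lists are not reported here by name.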

Additional observations from a re-analysis of the deposited data

Results flagged for a closer look

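With YAP5SA the geometric mean of the 37 genes lay on opposite sides of the empty vector in the 2 lines. In A431 cells all 3 libraries were above it, by 0.24 on the log2 scale on average. In HaCaT cells all 3 were below it, with a value of -0.16, a difference (HaCaT minus A431) of -0.40. The pooled replicate SD of this log2 mean was 0.136. A431 replicate 1 (132 against 130.5 CPM) and HaCaT replicate 2 (192 against 198 CPM) lay close to their control. These values use TMM factors. On library totals alone all genes moved up by 0.10 in the HaCaT comparison, and the median of the 37 was -0.11. For single genes the same opposite pattern held in 17 of the 37, PSMA4, PSMD7 and PSMD10 among them. The difference of the geometric means was not tested, each control is 1 library, and the test for single genes called none of the 37 unless A431 YAP5SA replicate 1 or HaCaT YAP5SA replicate 1 or 2 was left out or DESeq2 was used.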

How the results depend on the processing

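Of the counts of called genes, 129 of the alternative values stayed within 1.5 times the reported count and 21 did not. DESeq2 called 2 genes lower for HaCaT siYAP and 2 lower for the difference of the YAP5SA effect between lines (4.95% and 2.81% of all genes). With siCTRL and the empty vector pooled as 2 controls, which mixes the arms, 33 genes were called lower for HaCaT siYAP (15.0% of all genes). There were 31 called lower for siYAP over both lines (13.9%). For HaCaT YAP5SA 1 was called higher (PSMD3, 4.77%), and for YAP5SA over both lines 2 were (2.05%). In HaCaT YAP5SA the median of the 37 genes turned from -0.21 to 0.29, with PSMA4 at 0.052 and PSMD7 at 0.033. The 3 calls of HaCaT YAP5SA became 1 on library totals alone, 1 with no count filter and 0 with each line fitted alone (3.11%, 3.26% and 1.70% of all genes called lower). With each arm set relative to its own control, 0 genes were called for YAP5SA against siYAP in A431 and 0 in HaCaT cells. Leaving out 1 library at a time gave 1 to 2 lower calls for HaCaT siYAP (1.92% to 2.98% of all genes) and 1 to 3 for siYAP over both lines (5.17% to 6.79%). It gave 0 to 1 higher calls for A431 YAP5SA (0 to 0.435%) and 0 to 4 for YAP5SA over both lines (0.225% to 4.87%). Lower calls were 1 to 3 for HaCaT YAP5SA (3.52% to 10.8%) and 0 to 7 for the difference of the YAP5SA effect (0 to 3.26%). Among siYAP libraries alone the log2 differences of PSMB8/PSMB5, PSMB9/PSMB6 and PSMB10/PSMB7 were -0.78, -1.09 and -0.55, and among YAP5SA libraries alone -0.62, -0.70 and -1.52, in designs too small to pass. With the replicate block, fitted on the 12 treated libraries, 23 genes were called between lines. Of these 17 were lower and 6 higher in HaCaT (33.7% and 27.5% of all genes) against 12 and 10 reported, as they were on these libraries without the block. For YAP5SA against siYAP the block gave 35 calls in A431 (20.3% of all genes called higher) and 36 in HaCaT (31.4%), as reported. Comparisons with a control share fewer than 2 replicate numbers and could not be paired. The block spanned the siYAP libraries as well as the YAP5SA libraries, which alone deviated together between lines. The contrast of lines among YAP5SA libraries alone and the difference of the YAP5SA effect were fitted without a block. Where the alternatives changed a value, the cause was not tested. Single control libraries limit every comparison with siCTRL or the empty vector.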
